A study of Mus musculus with 2 samples.

Results

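The miR-23, miR-24 and miR-27 miRNAs are encoded in a pair of paralogous clusters, and their 6 loci were described here out of 1973 miRNA genes counted in embryonic lung (day 14.5, E14.5) of the mouse strain B6NCrl. The loci were chosen by name: Mir23b, Mir27b and Mir24-1 on chromosome 13, and Mir23a, Mir27a and Mir24-2 on chromosome 8. Mir24-1 was read from the opposite-strand counts of Mir3074-1, the gene annotated on the other strand of the same hairpin. MicroRNA sequencing, which counts short RNA reads per miRNA gene, was carried out on total RNA under 30 nt from 2 libraries, labelled as biological replicates of 1 untreated group. Each was labelled as the lung of 1 pup, while the sex was given as pooled. Both labels name pup 1 of pregnant female 2, so whether the libraries come from separate litters was not settled. Collection days differed as well, and cannot be told apart from the replicates. No mutant, treatment or other stage was part of the design, so no comparison of conditions was possible.

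A miRNA is cut from a hairpin in a longer primary transcript and guides silencing of mRNAs that pair with its seed, the bases 2 to 8 from its 5′ end. Each of these clusters places a miR-23, a miR-27 and a miR-24 hairpin close together, so that they can be made from a shared primary transcript. The clusters are known in mouse for roles in blood vessel growth, where miR-23 and miR-27 repress the signalling inhibitor Sprouty2 and the guidance protein Sema6A. miR-27 also restrains fat cell formation through Pparg, and miR-24 restrains cell cycle genes such as Myc and E2f2.

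The mature sequences decide which reads could be assigned to a locus, and they are given from RefSeq (GRCm38.p6), 5′ to 3′, with the seed in capitals. All 6 loci matched by hairpin, and 5 of the 6 by their 3p arm, with miR-23b-3p named only.
miR-23a-3p: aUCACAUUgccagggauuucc
miR-27b-3p: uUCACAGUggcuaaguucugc
miR-27a-3p: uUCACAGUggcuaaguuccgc
miR-24-3p: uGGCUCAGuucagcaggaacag
miR-24-1-5p: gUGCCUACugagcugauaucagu
miR-24-2-5p: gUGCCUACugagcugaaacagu

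miR-27b-3p and miR-27a-3p share the seed UCACAGU and their first 18 bases. Counted from 1 at the 5′ end of miR-27a-3p, the Mir27b hairpin differed by the substitution C19U alone. miR-24-3p is the same 22 bases at both loci. The 5p arms of the miR-24 hairpins differ, with 16 shared bases before the first difference. Laid without gaps against the Mir24-1 hairpin, miR-24-2-5p differed at 5 positions (A17U, C19U, A20C, G21A and U22G). The arms are 22 bases (miR-24-2-5p) and 23 bases (miR-24-1-5p) long and both end in cagu. The differences from base 19 on therefore reflect a shift of 1 base, not separate substitutions. The seed of miR-24-3p, GGCUCAG, also occurs in the mature miRNAs of Mir5124b, Mir6369, Mir6410 and Mir6413, all with 0 counts, a result that allows up to 0.585 CPM (replicate 1) or 1.29 CPM (replicate 2). CPM are counts per 1000000 gene-strand miRNA counts, and these limits stand for 3 counts.

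The miR-23 hairpins show how little sequence separates the copies. They are shown 5′ to 3′ with the longest run they share, 20 bases, in capitals.
Mir23b hairpin: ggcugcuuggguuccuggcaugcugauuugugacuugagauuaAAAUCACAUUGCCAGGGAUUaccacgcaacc
Mir23a hairpin: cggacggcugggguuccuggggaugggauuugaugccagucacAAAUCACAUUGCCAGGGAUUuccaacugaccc

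Over the length of miR-23a-3p the Mir23b hairpin differed by U19A alone, counted from the 5′ end of miR-23a-3p. Outside that arm the hairpins diverged, and their GC content was 48.6% for Mir23b and 56.0% for Mir23a. The chromosome 13 copies of miR-27 and miR-24 were also lower in GC, at 47.9% for Mir27b against 59.8% for Mir27a and 51.5% for Mir24-1 against 61.7% for Mir24-2.

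Reads that matched more than 1 place were assigned to no gene in the deposited counts. A read that starts at the 5′ end of a miR-23 or miR-27 3p arm and stops before base 19 could not be placed in 1 cluster by its sequence, and no complete miR-24-3p read could. How long the reads were, and how the authors' alignment treated mismatches, is not given in the sources used here. Levels of the miR-24 loci are therefore those of reads that could be placed, not of miR-24-3p.

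Both clusters lie on the plus strand in mm10 coordinates. On chromosome 13, Mir23b (63300484 to 63300557), Mir27b (63300712 to 63300784) and Mir24-1 (63301208 to 63301275) span 792 bases inside the aminopeptidase gene 2010111I01Rik (Aopep), on its strand. Mir23b lies in an intron, and Mir27b and Mir24-1 overlap annotated exons of that gene. The Fanconi anaemia gene Fancc is annotated across the region on the minus strand. Mir3074-1 (63301199 to 63301283, minus strand) covers all 68 bases of Mir24-1. On chromosome 8, Mir23a (84208518 to 84208592), Mir27a (84208672 to 84208758) and Mir24-2 (84208815 to 84208921) span 404 bases and overlap no protein-coding gene. Mir24-2 overlaps the first annotated bases of the lincRNA Gm26532 by 2 bases.

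Replicate 1 held 5128214 gene-strand counts and replicate 2 held 2332032. Multimapping reads were 32.9% and 33.1% of all reads. The vessel and smooth muscle miRNAs Mir126a and Mir143 were among the most abundant genes (76033 and 58438 CPM for Mir126a, 78321 and 60488 CPM for Mir143, in replicates 1 and 2), and the 5 epithelial miR-200 genes summed to 33294 and 33730 CPM. The neuronal genes (Mir124a and Mir9 copies) held 1 count in each library, which says nothing of neurons here, since copies of a mature miRNA lose their multimapping reads. The liver marker Mir122 stood at 22.4 and 39.5 CPM. In tissue RNA, fewer cells of a type and less RNA per cell cannot be told apart. CPM were not divided by length, since the mature arms of these loci are 21 to 23 bases long in the annotation, and how evenly different sequences were captured was not measured.

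The clusters were an abundant part of the lung miRNAs. Nearly all of the counts that could be placed in them were miR-23, with complete miR-24-3p reads left out. The 6 loci held 4.59% of gene-strand counts in replicate 1 (95% exact Clopper-Pearson interval 4.58 to 4.61) and 4.87% in replicate 2 (4.85 to 4.90), a mean of 4.73% ± 0.197 (SD, n = 2). With all mapped reads as the denominator, multimapping ones included, the mean was 2.74%. The chromosome 13 cluster held 3.35% and 3.74% of counts, and the chromosome 8 cluster 1.24% and 1.13%. Intervals cover counting error only, since reads without molecular identifiers need not be independent molecules.

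Mir23b was the most abundant locus of the 6, with 29871 CPM in replicate 1 and 34367 CPM in replicate 2 (mean 32119 ± 3179, SD, n = 2), which ranked it 11 and 10 among all genes. Mir23a followed with 11891 and 10954 CPM (mean 11423 ± 663), at ranks 19 and 22. The ranges of these genes did not overlap, and Mir23b was higher in both libraries. Together the pair held 90.9% of the counts placed at the 6 loci in replicate 1 and 93.0% in replicate 2.

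The miR-27 copies were lower and far apart from each other. Mir27b stood at 3582 and 2958 CPM (mean 3270 ± 442, SD, n = 2), at ranks 51 and 58. Mir27a stood at 338 and 234 CPM (mean 286 ± 73.6), at ranks 143 and 159. The lowest Mir27b value lay well above the highest Mir27a value.

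The counts that could be placed at the miR-24 loci were low. Mir24-2 had 901 counts in replicate 1 and 351 in replicate 2, or 176 and 151 CPM (mean 163 ± 17.8, SD, n = 2). Mir24-1, on the strand opposite to Mir3074-1, had 442 and 151 counts, or 86.2 and 64.8 CPM (mean 75.5 ± 15.2). Here the order was turned round, since the chromosome 8 copy was higher in both libraries.

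In the order Mir23b, Mir23a, Mir27b, Mir27a, Mir24-2 and Mir24-1, the ranges of neighbours over the libraries did not overlap. The plot of levels by library shows this descent.

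**Figure D1:**
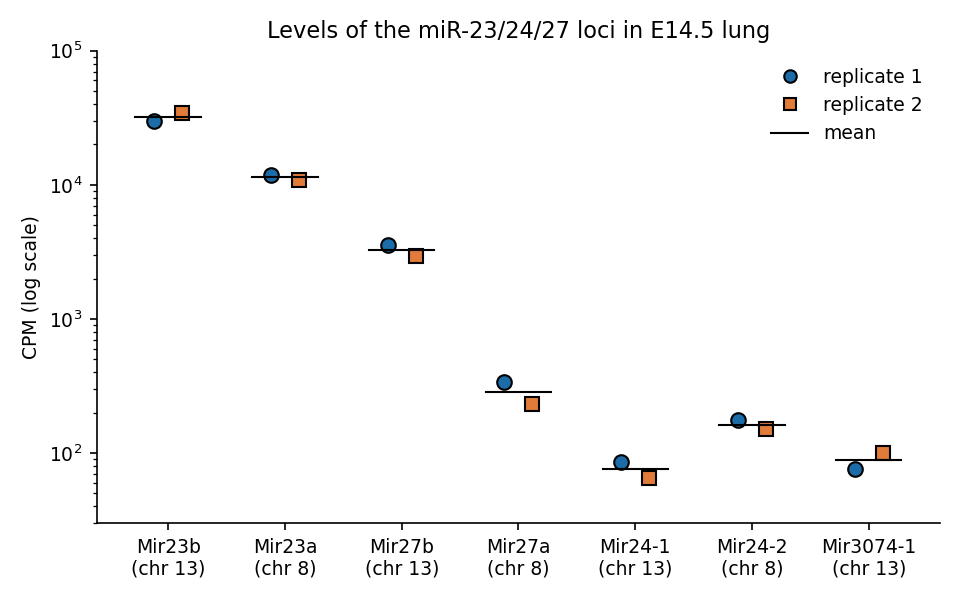
CPM on a log scale for the 6 loci and for Mir3074-1 on its own strand, with replicate 1 as circles, replicate 2 as squares and the mean of both as a line. Mir23b sits near 32119 CPM and Mir24-1 near 75.5 CPM, and the chromosome 13 copy lies above the chromosome 8 copy for miR-23 and miR-27 and below it for miR-24.

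Within each cluster every hairpin had fewer placed counts than the one before it in the direction of transcription. Complete miR-24-3p reads are left out at both miR-24 loci. The last step and the shares below are therefore those of placed counts, not of mature miRNAs. On chromosome 13, Mir23b held 89.1% of the cluster's counts in replicate 1 and 91.9% in replicate 2, Mir27b 10.7% and 7.91%, and Mir24-1 0.257% and 0.173%. On chromosome 8, Mir23a held 95.9% and 96.6%, Mir27a 2.72% and 2.06%, and Mir24-2 1.42% and 1.33%. Mir23b exceeded Mir27b by 8.34-fold and 11.6-fold, and Mir23a exceeded Mir27a by 35.2-fold and 46.9-fold. The step from miR-23 to miR-27 was thus larger on chromosome 8 in both libraries, with log2 ratios of 5.34 ± 0.29 for Mir23a over Mir27a and 3.30 ± 0.34 for Mir23b over Mir27b (SD, n = 2).

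The step from miR-27 to miR-24 ran the other way. Mir27b exceeded Mir24-1 by 41.6-fold and 45.7-fold, while Mir27a exceeded Mir24-2 by 1.92-fold and 1.55-fold. These folds carry the loss of miR-24-3p reads at both loci. The gaps between hairpins also differ, with 154 bases from Mir23b to Mir27b and 423 from Mir27b to Mir24-1, against 79 from Mir23a to Mir27a and 56 from Mir27a to Mir24-2. A link between gap and step was not tested.

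**Figure D2:**
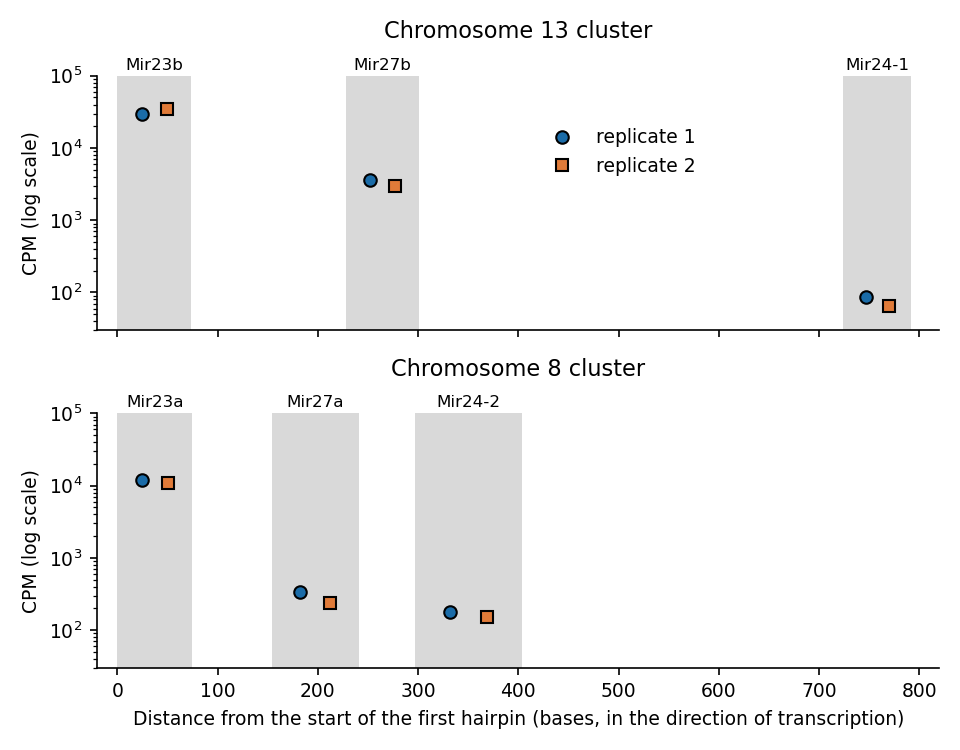
CPM on a log scale against the distance in bases from the start of the first hairpin of each cluster, with each hairpin as a grey band and the replicates as circles and squares. Counts descend along both clusters, steeply between Mir27b and Mir24-1 across a gap of 423 bases and little between Mir27a and Mir24-2 across 56 bases.

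Ratios between the copies were taken within each library, which needs no scaling between libraries. The fold of Mir23b over Mir23a was 2.51 in replicate 1 and 3.14 in replicate 2, which is 1.49 ± 0.23 as a log2 ratio (SD, n = 2). Its share of the pair was 71.5% (exact interval 71.3 to 71.7) and 75.8% (75.6 to 76.1), so the libraries differed by more than counting error. For Mir27b over Mir27a the folds were 10.6 and 12.7, or 3.53 ± 0.18 on the log2 scale, with shares of 91.4% (91.0 to 91.8) and 92.7% (92.1 to 93.3). Mir24-1 was lower than Mir24-2 by a log2 ratio of -1.12 ± 0.13, and its share was 32.9% (30.4 to 35.5) and 30.1% (26.1 to 34.3), intervals that overlap. The chromosome 13 cluster as a whole held 2.70 and 3.30 times the counts of the chromosome 8 cluster, a log2 difference of 1.58 ± 0.20. No ratio changed sign between the libraries. No test was made, because the smallest p of an exact two-sided sign test is 0.5 with 2 libraries.

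Of 4 other paralogous pairs set beside them, none had a ratio as far from 0 as Mir27b over Mir27a. The miR-181a copies, outside these 4 pairs, lay farther apart in both libraries. Mir181a-1 stood at 2082 and 1959 CPM and Mir181a-2 at 149 and 119 CPM in replicates 1 and 2, levels that leave out reads matching both. Mir27b over Mir27a was therefore not the widest gap between paralogous loci. Mir99b over Mir99a, both from clusters with let-7 and miR-125, gave log2 ratios of -0.999 and -0.898 in replicates 1 and 2. Mir200c over Mir200b, of the epithelial clusters, gave 0.83 and 0.91. Mir30d over Mir30a gave -1.16 and -1.18, and Mir15b over Mir15a, of the proliferation-restraining miR-15/16 clusters, -0.88 and -0.84. The difference of these ratios between the libraries (replicate 1 minus replicate 2) was -0.32 for Mir23b over Mir23a, -0.25 for Mir27b over Mir27a and 0.19 for Mir24-1 over Mir24-2. For the other 4 chosen pairs it ran from -0.10 to 0.03. The miR-181a and miR-26a copies, outside these 4 pairs, also shifted unequally between the libraries. Their scaled log2 ratios of replicate 1 to replicate 2 were 0.18 (Mir181a-1) and 0.42 (Mir181a-2), and 0.45 (Mir26a-1) and 0.21 (Mir26a-2). Such a shift was therefore not particular to the pairs of the clusters. These differences were not tested against each other.

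**Figure D3:**
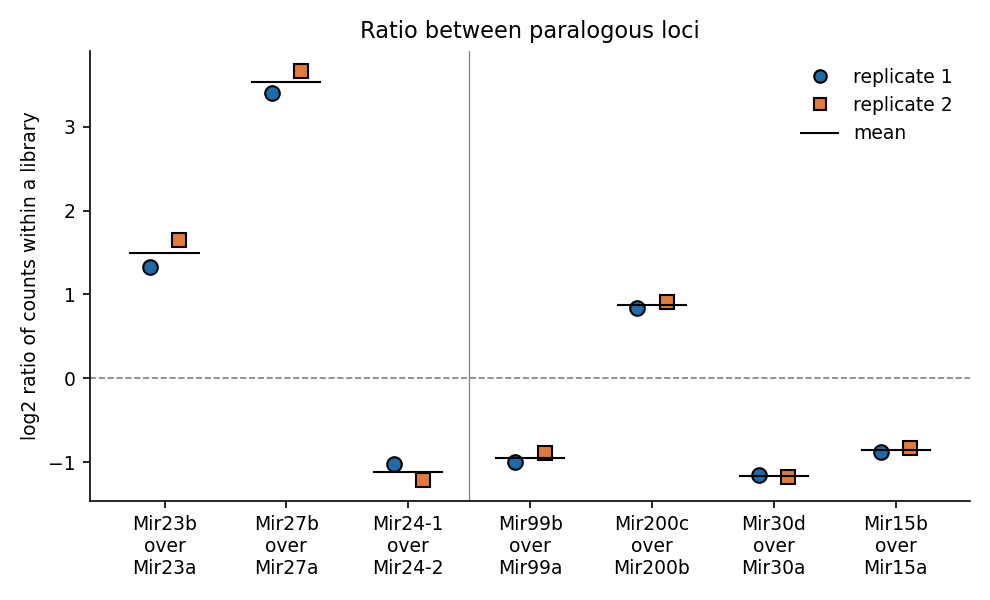
Log2 ratio of counts within a library for the 3 pairs of copies (left of the line) and 4 other paralogous pairs (right), with replicate 1 as circles, replicate 2 as squares and the mean as a line. Of the pairs shown, Mir27b over Mir27a is farthest from 0 at a mean of 3.53. The replicates lie farther apart for the 3 pairs on the left than for the 4 chosen pairs on the right. The miR-181a and miR-26a copies, which also shifted unequally between the libraries, are not shown.

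Counts at the Mir24-1 locus came from both strands, where the strand of each column was inferred from the values. The row of Mir3074-1 held 390 counts on its own strand and 442 on the Mir24-1 strand in replicate 1, and 235 and 151 in replicate 2. The own-strand share was 46.9% (exact interval 43.4 to 50.3) and 60.9% (55.8 to 65.8), so which strand was higher changed between the libraries. In CPM, Mir3074-1 on its own strand stood at 76.0 and 101. miR-3074-5p, like miR-24-3p, is also encoded at a second locus, Mir3074-2, so its complete reads could be placed at neither.

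At the chromosome 8 counterpart nearly all counts lay on the Mir24-2 strand. Mir24-2 had 2 and 4 counts on the strand opposite to it, where Mir3074-2 is annotated, which is 0.221% and 1.13% of its row. At the other members' rows the opposite strand held 0 or 1 count. For Mir23b, 0 of 153186 and 0 of 80146 counts allow a share of up to 0.00196% and 0.00374%. Of 330 genes with at least 10 counts on either strand in both libraries, 313 had under 1% on the opposite strand in both. The only gene with 10 to 90% of its counts on the opposite strand in both libraries was Mir3074-1.

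**Figure D4:**
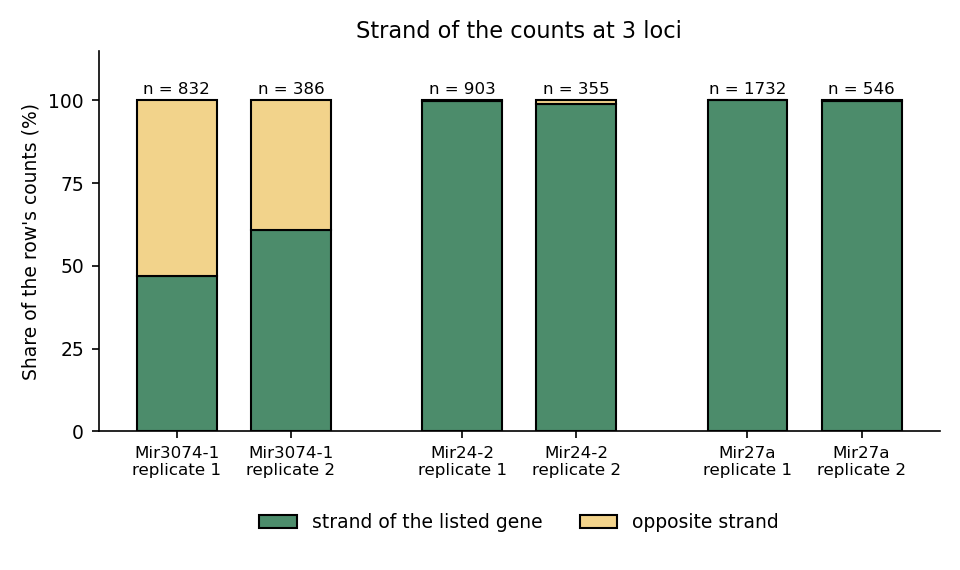
Share of each row's counts on the strand of the listed gene (green) and on the opposite strand (yellow) for Mir3074-1, Mir24-2 and Mir27a in each replicate, with the row's total count above each bar. The opposite strand, which is that of Mir24-1, holds 53.1% and 39.1% at Mir3074-1 and at most 1.13% at Mir24-2.

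Genes with a mature sequence in RefSeq were sorted by whether it was found in a second hairpin. Not all of the 1973 genes are covered, and Mir143 (mean 69405 CPM) is in neither set. Hairpins were at hand for 870 of the genes, so a copy at a locus without one was missed. A mature sequence was found in a second hairpin for 85 genes, Mir24-2 and Mir24-1 included. Of these, 44 (51.8%) had at least 10 counts over both libraries. Of 831 genes with no such arm found, 323 (38.9%) passed that filter, a smaller share. Among the genes that passed, the median level was 62.5 CPM for the 44 with a copied arm and 83.1 CPM for the 323 without. The highest mean levels in these sets were 4114 CPM and 67235 CPM. The means of Mir24-2 (163 CPM) and Mir24-1 (75.5 CPM) lay above the median of these 44 genes. Other copied miRNAs ranged widely, from 123 and 43 counts for Mir26a-1 and 298 and 124 counts for Mir26a-2 to 766 and 277 counts for Mir181a-2 and 10675 and 4568 counts for Mir181a-1, in replicates 1 and 2. None of these levels measures the shared mature miRNA.

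Differences between the libraries were given as the log2 ratio of replicate 1 to replicate 2 after scaling by trimmed mean of M values (TMM). Genes with 10 or more counts summed over the libraries entered an exact two-sided binomial test, adjusted by Benjamini-Hochberg over 405 genes at a threshold of 0.05. Such a test compares the reads of 2 libraries, not conditions. All 6 loci passed, against 41.7% of all genes tested and 73.3% of genes of at least 100 CPM, so a call was common at these levels. When the dispersion common to all genes (0.0337, a coefficient of variation of 18.4%), estimated from these libraries, was added to counting error, 0 of the 6 passed in edgeR's exact test, with 0 of 6 also at an unadjusted p under 0.05, and 0.247% of all genes passed. That dispersion takes the difference between these same libraries as noise, so few genes could pass, and it gives no separate result on the 6 loci.

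The log2 ratio was above 0 at 5 of the 6 loci and below 0 at Mir23b. Mir27a had the largest log2 ratio of the 6 at 0.62 (exact binomial adjusted p = 1.30e-18), followed by Mir24-1 at 0.49 (exact binomial adjusted p = 0.000643) and Mir27b at 0.36 (exact binomial adjusted p = 4.98e-73). Mir24-2 stood at 0.31, Mir23a at 0.21 and Mir23b at -0.11. The median of the 6 was 0.34, against 0.03 over all genes tested. Mir27a was the only locus of the 6 beyond 1.5-fold, as were 13.3% of all genes tested and 4.28% of those of at least 100 CPM. Under scaling by library totals it lay inside 1.5-fold, at 0.53.

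The split of calls over all genes moved with the scaling, from 97 higher in replicate 1 and 72 higher in replicate 2 under TMM to 66 and 112 under library totals. Relative to library totals, TMM shifted all log2 ratios by 0.09 and DESeq2 size factors by 0.14. No locus of the 6 changed direction under either.

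**Figure D5:**
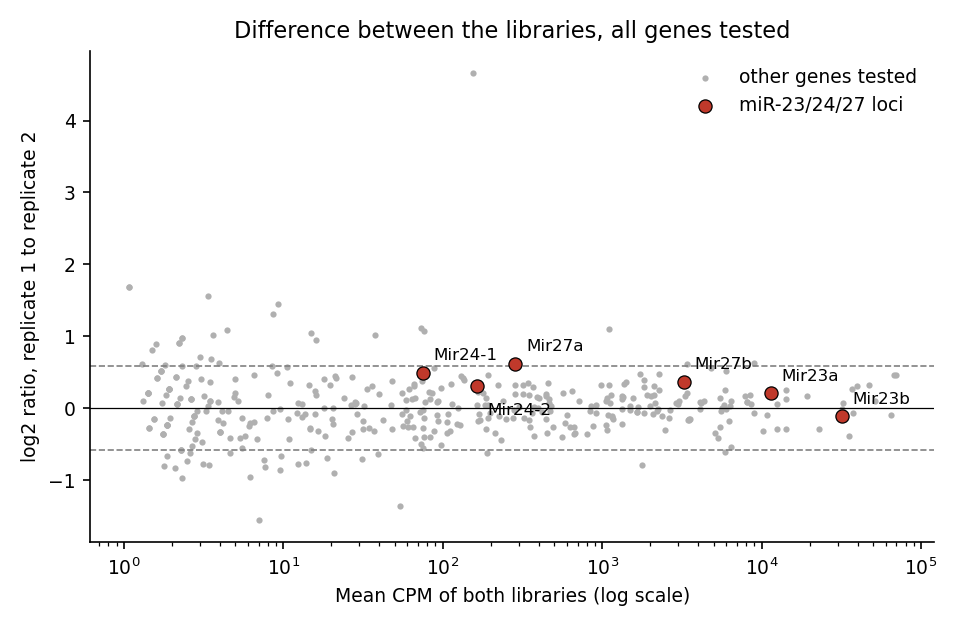
Log2 ratio of replicate 1 to replicate 2 against the mean CPM (log scale) for 405 genes tested, with the 6 loci of the clusters in red and dashed lines at 1.5-fold. Of the 6, 5 lie above 0, Mir27a just beyond the upper line at 0.62 and Mir23b below 0 at -0.11.

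A list of 10 miRNAs linked to blood vessels was set beside the clusters. Of these, 6 passed the same exact binomial test, 3 higher in replicate 1 and 3 higher in replicate 2, beside 41.7% of all genes tested and 73.3% of genes of at least 100 CPM. With the dispersion added, which takes the difference between these libraries as noise, 0 of 10 passed in edgeR's exact test, and 0 of 10 at an unadjusted p under 0.05. Their median log2 ratio was -0.04, against 0.03 over all genes tested. The endothelial Mir126a (0.47) and the smooth muscle Mir143 (0.46) were higher in replicate 1, as was the hypoxia-induced Mir210 (0.17). Mir17 (-0.39), Mir221 (-0.27) and Mir10a (-0.07) were higher in replicate 2. Mir145a, processed from the same transcript as Mir143, had a log2 ratio of 0.03 and did not pass, nor did Mir92-1 (mir-92a-1) of the Mir17 cluster at -0.02. The part of vessel cells in the members' ratios was not tested.

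The genes nearest in level over the 2 libraries, by the larger of the 2 differences in log2(CPM + 1), were Mir130a (0.07) and Mir26b (0.11) for Mir23b. For Mir27b they were the cartilage miRNA Mir140 (0.11) and the endocrine miRNA Mir375 (0.14). For Mir23a they were Mir21a (0.20) and the epithelial Mir200c (0.22), and for Mir27a Mir32 (0.16) and Mir125b-1 (0.22).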

How the data were processed

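MicroRNA-seq counts of 2 libraries of E14.5 lung were used. Per miRNA gene the authors deposited 3 columns of whole-number counts, from alignments to mm10 with GENCODE M4, per the deposited readme. Which aligner and counter made them is not stated in the labels or headers. The readme does not name the columns. The first equalled the sum of the other columns for every gene, and on the values they were read as counts on either strand, on the gene strand (the larger total) and on the opposite strand. The gene-strand column was used, with the opposite-strand counts of Mir3074-1 added as Mir24-1. The 4 summary entries stayed out of library sizes: unmapped reads were 12.7% and 11.7% of reads in replicates 1 and 2, multimapping 32.9% and 33.1%, without a feature 4.10% and 3.93%, ambiguous 0% in both. A count is worth 0.195 CPM (replicate 1) or 0.429 CPM (replicate 2). Of 1973 identifiers, 1894 matched GENCODE M21 symbols, and the other 79 held 1 count.

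The members and lists were chosen with earlier results of these data known. Named genes were the members, the 2 genes nearest in level to Mir23b, Mir27b, Mir23a and Mir27a, 4 paralogous pairs, the miR-26a and miR-181a copies and the vessel and cell-type lists. Mir5124b, Mir6369, Mir6410, Mir6413, Mir3074-2 and Mir208a fall outside that rule and were named after their values were seen. The listed Mir92a-1 was matched to Mir92-1 through its RefSeq synonym. Mir142 and Mir9-1 were not found under these names among the counted genes. White-cell markers therefore cover 3 of the 4 listed genes, and neuronal markers 5 of the 6. Red-cell markers summed to 497 and 392 CPM and white-cell markers to 691 and 662 CPM. CPM used all gene-strand counts, intervals were exact Clopper-Pearson intervals at 95%, and log2 ratios between libraries used a pseudocount of 1 CPM. The test between libraries was tried on simulated counts drawn with counting error alone, so that trial does not bear on the wider spread between these libraries. Whether replicates came from separate litters is not known here. The exact binomial p-values set the difference between these 2 libraries against counting error of reads. They do not measure a spread between animals or litters. Software was R 4.3.3, edgeR 4.0.16, DESeq2 1.42.0, Python 3.11.15 and scipy 1.17.1.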

Additional observations from a re-analysis of the deposited data

Results flagged for a closer look

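Mir24-2 had 4 counts on its opposite strand in replicate 2, which is above the limit of 3 counts that a count of 0 allows, in the opposite-strand column, which entered the levels and ratios of the clusters for Mir3074-1 alone. In replicate 1 the same strand held 2 counts.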

How the results depend on the processing

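The joint share of the 6 loci, 4.73%, was 5.09% without the most abundant gene and 2.74% with all mapped reads as the denominator. It was 4.59% to 4.87% when either replicate was left out, and within 1 SD of the main value in the column without regard to strand and without Mir3074-1. The log2 ratio of Mir24-1 to Mir24-2 was 0.00132 in the column without regard to strand, where counts of Mir3074-1 are added to Mir24-1, so its direction holds for counts by strand alone, and there the log2 ratio of Mir27b to Mir24-1 was 4.31, against 5.45. The other ratios between copies and between the clusters moved by less than 1 SD in that column and with 1 count added to each side. With 2 libraries, leaving 1 out moves a mean by less than 1 SD in any case, so it is no check of stability. With the common dispersion added, which takes the difference between the libraries as noise, genes that differed fell to 1 (Mir208a), against 169, and members to 0, against 6. Genes beyond 1.5-fold were 54, 144 with no filter on low counts and 18 with at least 100 counts over both libraries, since the filter sets how many low genes are counted. Members beyond 1.5-fold were 0 under library totals, against 1. Adjusted p-values of the members stayed under 0.05 in every alternative that gave a value but the added dispersion, the highest being 0.0330 for Mir24-2. With 2 libraries the spread between animals is poorly known, and reads of miR-24-3p could not be placed at any depth. No paired analysis was possible because the 2 libraries form 1 group.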
